A study of Homo sapiens
Mus musculus with 2 samples.

Results

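IVA12 is a mouse B hybridoma line, and its cells were chosen by their UMI counts of 10 genes out of 2 Drop-seq libraries. In Drop-seq, each cell is caught in a droplet with a barcoded bead, and every captured mRNA molecule gets a unique molecular identifier (UMI), so that PCR copies count once. A barcode was taken as an IVA12 cell when it had at least 2000 UMIs, at least 90% of them on mouse genes, and at least 2 UMIs summed over 5 B-lineage genes (Mzb1, Pou2af1, Tnfrsf17, Derl3 and Jchain), with that B sum above the sum over 5 T cell genes (Cd3e, Cd3d, Cd3g, Lck and Lat). This gave 265 IVA12 cells among 6000 barcodes.

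Both libraries were made from an equal mixture of cultured lines: the human T lines Jurkat and TALL-104, the mouse T line EL4, and IVA12. The mixture was loaded at 150 cells per µl in 1 library, which held 30 IVA12 cells. The other library was loaded at 300 cells per µl and held 235. Each concentration had 1 library, so a difference between them has no replicate check, and it also holds any difference between the runs. Intervals are at 95% and cover counting error only. The tables gave genes by identifier without names, and the 10 genes of the rule are the only ones named here.

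A hybridoma is the fusion of an antibody-making B cell with a myeloma cell, and it secretes antibody while it divides. Cells of this kind push large amounts of immunoglobulin through the endoplasmic reticulum, with the help of chaperones and of a disposal system for misfolded chains. Jchain encodes the chain that joins IgM and IgA units into polymers, and Mzb1 encodes an endoplasmic reticulum protein that helps immunoglobulin assembly. Pou2af1 encodes a coactivator of Oct transcription factors in B cells. Tnfrsf17 encodes BCMA, a receptor for survival ligands on plasma cells, and Derl3 encodes a part of the machinery that removes misfolded proteins from the endoplasmic reticulum.

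IVA12 cells were 41.1% of the 73 mouse barcodes of this depth and purity at 150 cells per µl (exact binomial interval 29.7% to 53.2%). Their share was 40.8% of 576 at 300 cells per µl (36.8% to 44.9%). The other mouse barcodes had a T sum of at least 2 and above the B sum, and are called EL4 cells (43 and 340), apart from 1 barcode at 300 cells per µl that met neither rule. The share of IVA12 cells was thus nearly the same at both concentrations, and each interval held the other value.

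The B and T sums separated the mouse barcodes widely at 150 cells per µl. There the lowest B sums of IVA12 cells were 16, 20, 23 and 47 UMIs, the median was 85.5 and the highest 329, while no EL4 cell had a B sum above 5. At 300 cells per µl the lowest were 2, 3, 4 and 7 UMIs, the median was 50 and the highest 519, and B sums in EL4 cells reached 11. The cell at the limit of 2 had 2 UMIs of Pou2af1 and 0 of Jchain and Mzb1 in 10772 UMIs. The IVA12 cells with the fewest UMIs had 2006 and 2041, and the deepest barcodes below the minimum that met the other criteria had 1628 and 1995. The lowest mouse shares of IVA12 cells were 97.5% and 91.3%, and the highest below the limit, with the other criteria met, were 4.92% and 83.6%. No T gene UMI was found in 25 of 30 IVA12 cells and in 182 of 235. At 300 cells per µl, 6 IVA12 cells had a T sum of at least 6, the highest being 26.

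**Figure D1:**
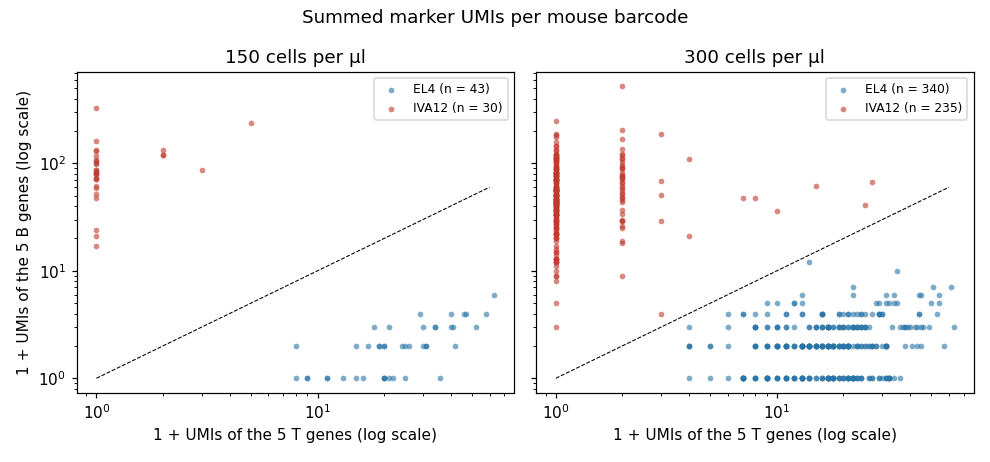
Each point is 1 mouse barcode, placed by 1 plus its UMIs of the 5 T genes and 1 plus its UMIs of the 5 B genes (both axes log), with IVA12 cells in red, EL4 cells in blue and a dashed line where both sums are equal. At 150 cells per µl the IVA12 cells have B sums of 16 to 329, clear of the EL4 cells, whereas in the library of 300 cells per µl 6 of them have T sums of 6 to 26.

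IVA12 cells were deeper at the lower concentration. Their median depth at 150 cells per µl was 14590.5 UMIs (quartiles 10639 and 19061, range 2006 to 36270), and 8427 at 300 cells per µl (quartiles 5145 and 12026, range 2041 to 38180). The median numbers of genes were 4020 and 3145. After each cell was thinned to 2000 mouse UMIs, which left out 1 cell at 150 cells per µl, the medians over mouse genes were 1180 and 1243, against 1176 and 1236 in EL4 cells. The order of the libraries thus turned round at equal depth. The median share of human UMIs in an IVA12 cell was 0.32% and 0.38%, with highest values of 2.52% and 8.67%. IVA12 cells held 19.0% and 26.1% of all UMIs of their libraries.

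Jchain was the leading gene of the rule in IVA12 cells. Its CPM, the UMIs of the gene over all mouse UMIs of the summed IVA12 cells, scaled to 1000000, was 4684 at 150 cells per µl (exact Poisson interval 4487 to 4887). In the library of 300 cells per µl it was 4104 (4021 to 4188). This placed Jchain 11th and 12th among all mouse genes, and it was found in 30 of 30 and 233 of 235 cells. In EL4 cells Jchain was at 22.0 and 50.2 CPM. In the human cells of the same libraries (82 and 282 barcodes of at least 2000 UMIs and at most 10% mouse UMIs), which hold no mouse genome, UMIs of mouse Jchain were at 30.7 and 65.1 CPM of all UMIs, with median depths of 6411 and 3952 UMIs against 12428 and 8174 in EL4 cells. A UMI of Jchain was seen in 27.9% and 33.8% of EL4 cells and in 20.7% and 27.7% of human cells. In CPM, the level in EL4 cells was thus no higher than that in cells without the gene, and is read as background. By share of cells with a UMI, EL4 cells were higher, but they were also deeper.

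Mzb1 was the next of the secretory genes. It reached 1391 CPM (1284 to 1504) at 150 cells per µl and 1507 CPM (1457 to 1559) at 300 cells per µl, ranks 107 and 78, in 30 of 30 and 231 of 235 IVA12 cells. Values in EL4 cells, 5.08 and 18.0 CPM, were close to the 4.84 and 26.5 CPM in human cells and are likewise at background. IVA12 cells thus carried 274 and 83.7 times the Mzb1 level of EL4 cells, and 213 and 81.8 times the Jchain level. Since both EL4 levels are at background, these folds describe the level of stray UMIs in each library as much as the lines.

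Pou2af1 was lower and spread differently over the lines. In IVA12 cells it was at 410 CPM (353 to 473), rank 405, and 714 CPM (680 to 750), rank 201, with a UMI in 29 of 30 and 224 of 235 cells. EL4 cells had 55.8 and 81.0 CPM and human cells 6.45 and 8.33 CPM. The EL4 level was 8.65 and 9.72 times that in human cells, so it stood above background, and IVA12 exceeded EL4 by 7.34 and 8.82 times. A Pou2af1 UMI was found in 46.5% and 50.9% of EL4 cells (intervals 31.2% to 62.3% and 45.4% to 56.3%) and in 4.88% and 3.90% of human cells. Of the 3 B genes detected well, Pou2af1 was therefore the only one with EL4 levels above those of human cells in both libraries.

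Tnfrsf17 and Derl3, also among the 5 B genes of the rule, were nearly absent. Tnfrsf17 had 2 UMIs in 2 of 30 cells and 11 UMIs in 9 of 235 cells, at 4.41 CPM (0.53 to 15.9) and 4.87 CPM (2.43 to 8.72), and 0 UMIs in EL4 and human cells. Derl3 had 3 UMIs in 3 cells and 7 UMIs in 6 cells, at 6.61 CPM (1.36 to 19.3) and 3.10 CPM (1.25 to 6.39), and at most 1 UMI in any other class of either library. The label of IVA12 cells as B-lineage thus rested on 3 of its 5 markers. The rule gave 30 and 235 cells again when Mzb1, Tnfrsf17 or Derl3 was left out of the B sum, and 30 and 232 when Pou2af1 or Jchain was. With so few UMIs, leaving out Tnfrsf17 or Derl3 could hardly change the cells chosen. These counts describe the rule and do not test the label.

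The T genes were at or near background in IVA12 cells at 150 cells per µl and above it at 300 cells per µl. Summed over all 5, they had 19.8 CPM (9.07 to 37.7) and 62.9 CPM (53.0 to 74.1) in IVA12 cells, 21.0 and 27.3 CPM in human cells (UMIs of the mouse genes), and 1849 and 2044 CPM in EL4 cells. At 150 cells per µl, Cd3e, a chain of the T cell receptor complex, and Lat, an adaptor of T cell receptor signalling, had 0 UMIs in the 30 IVA12 cells, with an exact Poisson upper bound of 8.13 CPM for each. At 300 cells per µl Lat had 24.4 CPM and Cd3d 17.3 CPM, and Cd3g, the kinase gene Lck and Cd3e had 9.74, 9.30 and 2.21 CPM.

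**Figure D2:**
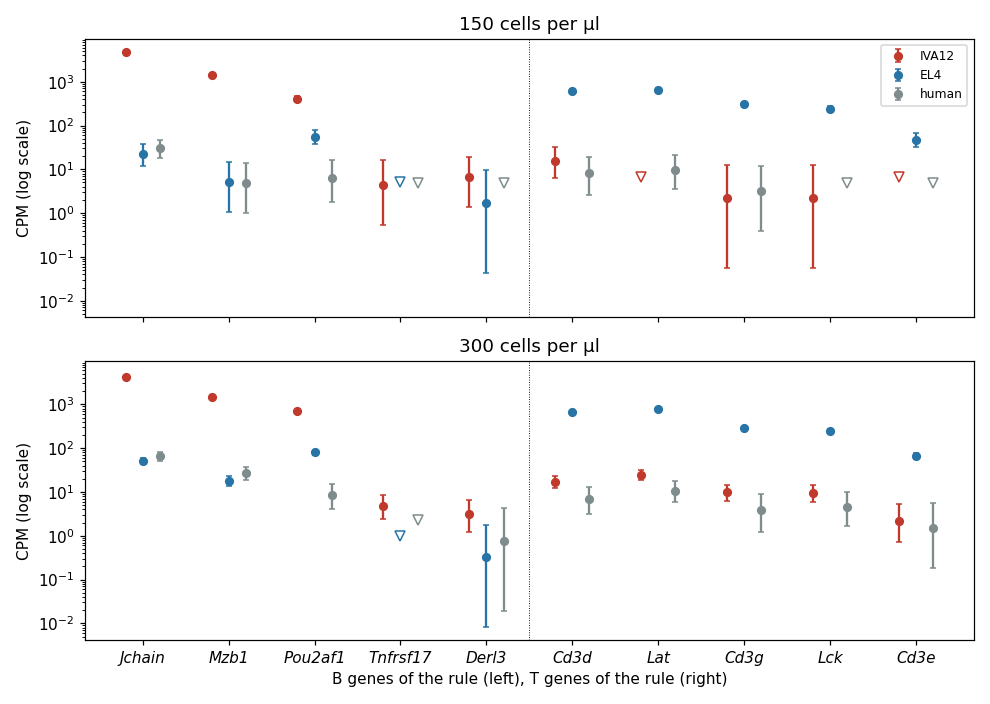
CPM of the 10 genes of the rule (log scale) in IVA12 cells (red), EL4 cells (blue) and human cells (grey) of each library, with exact Poisson intervals, and open triangles at the level of 3 UMIs where none was found. Jchain, Mzb1 and Pou2af1 stand highest in IVA12 cells in both libraries, Tnfrsf17 and Derl3 stay below 7 CPM, and in EL4 cells Pou2af1 lies above the human cells.

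These genes chose the cells, so their levels are a description and were not tested against EL4. Genes outside the rule are a separate readout. Each mouse barcode was therefore fitted as a mixture of an IVA12 and an EL4 profile over 12183 other mouse genes, with the profiles taken from the other library. The IVA12 share of IVA12 cells was 93% to 100% at 150 cells per µl (median 100%). In the other library it ran from 16% to 100% (median 97%), with 213 of 235 cells at 90% or more. EL4 cells reached at most 16% and 17%. Assignment by the 10 genes and by the other genes thus gave the same side of 50% for all but 2 IVA12 cells.

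The 2 cells at most 50% IVA12 were 1 with 2610 UMIs, a B sum of 3 and a T sum of 2, with a share of 16%, and 1 with 23232 UMIs, a B sum of 66 and a T sum of 26, with a share of 42%. The 6 IVA12 cells with a T sum of at least 6 had shares of 42% to 68% in total depths of 7330 to 25083 UMIs. The cell with the lowest B sum, 2, had a share of 96%. In all, 22 cells at 300 cells per µl (9.36%) were below 90%, against 0 of 30 at 150 cells per µl. The exact binomial upper bound for 0 of 30 was 11.6%, so these counts do not separate the libraries. The libraries also differed in depth, with 3 and 56 IVA12 cells below 5000 UMIs, and each was fitted with the profiles of the other. Without these 22 cells, the T genes summed to 21.5 CPM in IVA12 cells at 300 cells per µl, near the 27.3 CPM in human cells. No doublet caller was run, and whether these barcodes held more than 1 cell was not tested.

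**Figure D3:**
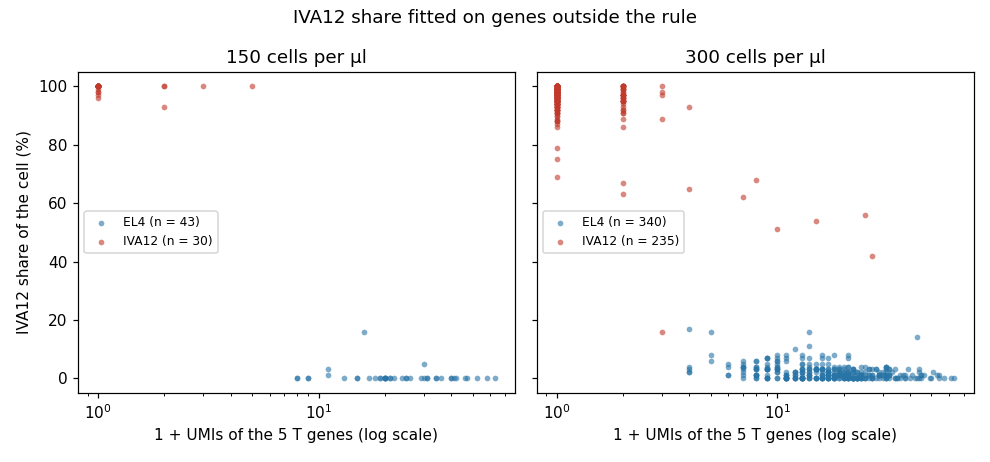
The IVA12 share fitted on genes outside the rule (%) against 1 plus the UMIs of the 5 T genes (log scale), 1 point per mouse barcode. At 150 cells per µl all IVA12 cells lie at 93% or higher, while at 300 cells per µl the 6 cells with a T sum of at least 6 lie at 42% to 68%, between both lines.

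Levels of the secretory genes varied from cell to cell by more than counting error. Over single cells, Jchain had a median of 4447 CPM at 150 cells per µl (quartiles 3058 and 6447, range 1646 to 8525) and 4013 CPM at 300 cells per µl (quartiles 2682 and 5760, range 0 to 12021). At equal depth of 2000 UMIs, a cell held 9.69 ± 5.29 Jchain UMIs (SD, n = 29 cells) and 8.53 ± 5.26 (n = 235), and the variance over cells was 2.88 and 3.24 times the mean, where pure counting gives equality. The part of the squared coefficient of variation above counting was 0.19 and 0.26, and stayed at 0.15 and 0.27 at 5000 UMIs.

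Mzb1 had 3.10 ± 2.48 and 3.14 ± 2.26 UMIs per thinned cell, with the variance at 1.99 and 1.63 times the mean. Its median over single cells was 1370 CPM (range 601 to 5086) and 1457 CPM (range 0 to 7315). The part of its squared coefficient of variation above counting was 0.32 and 0.20 at 2000 UMIs and 0.15 and 0.20 at 5000 UMIs. Only 27 and 179 cells had 5000 UMIs, so depth and the set of cells changed together, and no order of the libraries in spread is given.

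For Pou2af1 the thinned cells had 0.93 ± 1.07 and 1.502 ± 1.48 UMIs, with medians of 335 and 635 CPM over single cells. After thinning, at least 1 Pou2af1 UMI was left in 58.6% and 70.6% of IVA12 cells, and in 6.98% and 16.8% of EL4 cells. At 150 cells per µl a single IVA12 cell held 43 of the 186 Pou2af1 UMIs (23.1%), and without it the level was 342 CPM.

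**Figure D4:**
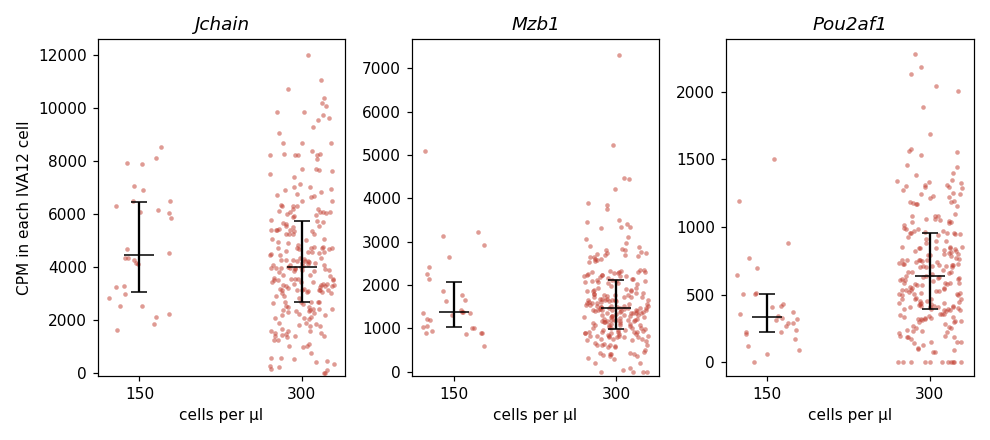
CPM of Jchain, Mzb1 and Pou2af1 in each IVA12 cell (linear scale, 1 point per cell, 30 and 235 cells), with a black bar at the median and whiskers at the quartiles. Jchain medians are 4447 and 4013 CPM and Mzb1 medians 1370 and 1457, with quartile ranges that overlap, while the Pou2af1 median is 335 at 150 cells per µl and 635 at 300.

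Nearly every IVA12 cell carried all 3 of these genes: 29 of 30 cells and 220 of 235 had a UMI of each. The exception at 150 cells per µl had no Pou2af1 UMI among 21809. Among the 235 cells, 2 lacked Jchain, 4 lacked Mzb1 and 11 lacked Pou2af1, and 2 lacked both Jchain and Mzb1. The levels of Jchain and Mzb1 were weakly related across cells of a library, which share that library and its depth: Spearman's rho of CPM was 0.24 over 30 cells and 0.33 over 235, given as a description. For Mzb1 and Pou2af1 rho was 0.43 and 0.006, and for Jchain and Pou2af1 it was -0.04 and 0.23. Jchain and Mzb1 were thus the most related pair at 300 cells per µl only.

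Shallower IVA12 cells had higher Mzb1 levels per UMI. The intervals of the depth groups cover counting error and leave out the spread between cells. At 300 cells per µl Mzb1 was at 1838 CPM (1653 to 2037) in the 56 cells below 5000 UMIs, 1736 CPM (1637 to 1840) in the 90 cells from there to under 10000 UMIs and 1354 CPM (1293 to 1416) in the 89 deeper cells. Jchain went from 4531 and 4817 CPM in the shallower groups to 3710 CPM (3610 to 3812) in the deepest. Pou2af1 showed no such order, with 683, 752 and 701 CPM and intervals that overlapped. At 150 cells per µl the 3 cells below 5000 UMIs had an Mzb1 level of 3242 CPM (2098 to 4786) against 1350 CPM (1240 to 1466) in the 23 deepest. The 4 cells from 5000 to under 10000 UMIs had 1491 CPM (1083 to 2001), an interval that held that of the deepest. At this concentration the higher Mzb1 level thus rested on 3 cells. Jchain had no such order there, with 3631 CPM (2413 to 5248) in the 3 shallowest cells, 7487 CPM (6533 to 8542) in the 4 cells from 5000 to under 10000 UMIs and 4505 CPM (4303 to 4713) in the deepest.

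Because IVA12 cells were shallower at 300 cells per µl, the libraries were also set side by side in cells of at least 10000 UMIs, 23 and 89 cells. There Mzb1 was at 1350 and 1354 CPM, within each other's intervals. Jchain was at 4505 and 3710 CPM and Pou2af1 at 406 CPM (347 to 472) and 701 CPM (658 to 746), with intervals that did not overlap.

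Between the libraries, the secretory genes differed little and Pou2af1 differed more. The log2 ratio of CPM, 300 over 150 cells per µl, was -0.19 for Jchain (exact conditional interval -0.26 to -0.12), 0.12 for Mzb1 (-0.01 to 0.24) and 0.80 for Pou2af1 (0.58 to 1.03). In cells with a T sum of 0, Jchain was at 4390 and 4249 CPM at 150 and 300 cells per µl. These values were closer together than the 4684 and 4104 CPM of all IVA12 cells, so the size of the Jchain difference depends on the cells taken. Scaling by TMM instead of totals shifted all ratios by -0.13, and it turned Mzb1 to -0.02, so no direction is given for Mzb1. Of the 4522 genes with at least 100 UMIs over both sets of IVA12 cells, 5.13% differed by at least 2-fold (3.74% higher and 1.39% lower at 300 cells per µl), and none of these 3 genes did. The median ratio over these genes was 0.14. A ratio as far from 0 as that of Pou2af1 was found for 10.6% of the genes, against 67.6% for Jchain and 79.9% for Mzb1. Without the cell that held 23.1% of its UMIs at 150 cells per µl, the Pou2af1 ratio was 1.06. In EL4 cells Pou2af1 was also higher at 300 cells per µl, with a log2 ratio of 0.54 (0.01 to 1.11). This interval overlapped that of all IVA12 cells, so the Pou2af1 difference is not given as particular to IVA12.

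In the summed UMIs, the balance of the B genes differed between the libraries. Jchain and Mzb1 UMIs stood in ratios of 3.37 and 2.72 at 150 and 300 cells per µl, and Jchain and Pou2af1 in ratios of 11.4 and 5.74. With cells weighted equally, Jchain was at 4859 and 4369 CPM and Mzb1 at 1683 and 1615 CPM. Both were then lower at 300 cells per µl, so the size of the Jchain to Mzb1 shift depends on the weighting. All 5 B genes summed to 6496 CPM (6263 to 6735) and 6333 CPM (6230 to 6438), with intervals that overlapped.

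Outside the rule, the 2 genes with the largest ratio in each direction are given, without names. ENSMUSG00000068220 stood at 8.82 CPM in IVA12 cells loaded at 150 cells per µl and at 57.6 CPM in those at 300 (log2 ratio 2.71, interval 1.32 to 4.60), beside 2546 and 1990 CPM in EL4 cells. Of its 130 UMIs at 300 cells per µl, 94 lay in the 22 cells with an IVA12 share below 90%, and without them the level was 17.2 CPM and the ratio 0.97. ENSMUSG00000035042 went from 26.5 to 158 CPM (log2 ratio 2.58, 1.75 to 3.54), with 0 and 0.96 CPM in EL4 cells. Its 356 UMIs at 300 cells per µl lay in 11 of 235 cells, and 1 cell held 185 of them, so the ratio rests on very few cells.

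Lower at 300 cells per µl were ENSMUSG00000069272, with 170 and 27.9 CPM (log2 ratio -2.60, -3.11 to -2.11), and ENSMUSG00000038489, with 119 and 24.4 CPM (-2.29, -2.86 to -1.72). Their UMIs were spread over 17 and 21 of the 30 IVA12 cells at 150 cells per µl and over 46 and 44 of the 235 at 300. Both were also lower at 300 cells per µl in EL4 cells, by log2 ratios of -1.34 and -1.77, so this difference was not limited to IVA12.

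The rest of the IVA12 transcriptome was compared with EL4, the other mouse line, on 4 sums of UMIs (1 per line and library) with the library as a block. The 10 genes of the rule were left out of the test. Of 8881 genes, 56.5% passed edgeR's quasi-likelihood test at a Benjamini-Hochberg adjusted p of 0.05, which is 5020 genes. IVA12 was higher for 2453 (27.6%) and lower for 2567 (28.9%). With 1 residual degree of freedom the p-values lean on the spread shared over genes, and they measure only the spread between 2 libraries of the same mixture. DESeq2 called 1720 of 10049 genes, a much smaller part than edgeR. Of these, 1712 were also called by edgeR, and 0 of the shared calls changed direction.

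The split of the calls by direction moved with the settings. With library totals in place of TMM, 2590 of 8881 genes were higher in IVA12 and 2510 lower. With no filter on low counts, 3114 of 14170 genes were higher and 2393 lower. The median absolute log2 fold change was 1.14 for genes higher in IVA12 and 1.13 for lower ones, with 1397 and 1450 genes past 2-fold and 496 and 488 past 8-fold. Among the called genes, 2415 of 2453 and 2519 of 2567 had the same sign within each library. Genes higher in IVA12 took 42.3% and 42.1% of the UMIs of tested genes in IVA12 cells and 21.8% and 21.9% in EL4 cells. Genes lower in IVA12 took 26.1% and 25.8% in IVA12 cells and 47.4% and 47.0% in EL4 cells. These shares were nearly the same at both concentrations. The genes were called on these same sums of both libraries. The larger share in the line called higher therefore follows from the selection, which also favours agreement between the libraries.

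**Figure D5:**
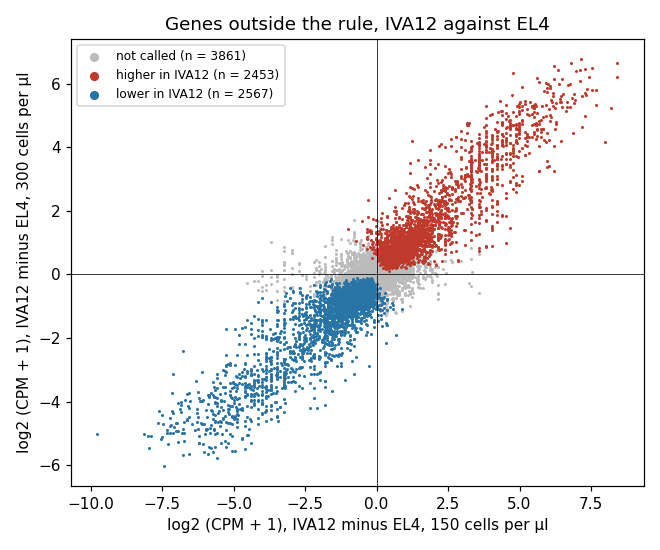
Difference of log2 (CPM + 1), IVA12 minus EL4, at 150 cells per µl (horizontal) and 300 cells per µl (vertical) for the 8881 tested genes outside the rule, with the 2453 called higher in IVA12 in red, the 2567 called lower in blue and the rest in grey. Both libraries place most called genes in the same quadrant, and the calls were made on both libraries together.

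By largest fold change, ENSMUSG00000053158 and ENSMUSG00000025574 were the genes higher in IVA12. The first had 50 and 225 UMIs in IVA12 cells (110 and 99.7 CPM) and 0 in EL4 cells, so that, taking 3 UMIs in each library as the floor, it was higher by at least 21.7-fold and 103-fold (edgeR adjusted p = 4.11e-70). It was found in 22 of 30 and 113 of 235 IVA12 cells. The second had 47 and 138 UMIs (104 and 61.1 CPM) against 0, at least 20.4-fold and 63.4-fold higher (edgeR adjusted p = 3.47e-50), in 13 of 30 and 80 of 235 cells. DESeq2 did not call either, at adjusted p of 0.103 and 0.127.

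ENSMUSG00000022270 and ENSMUSG00000030653 were the genes lower in IVA12. The first had 32 and 193 UMIs in EL4 cells and 0 and 1 in IVA12 cells, at least 8.19-fold higher in EL4 at 150 cells per µl, with an estimate of 140-fold at 300 (interval 24.8 to 5562; edgeR adjusted p = 7.68e-38). The second had 39 and 176 UMIs in EL4 cells and 0 and 1 in IVA12 cells, at least 9.98-fold higher in EL4 at 150 cells per µl, with an estimate of 128-fold at 300 (interval 22.6 to 5074; edgeR adjusted p = 7.42e-37).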

How the data were processed

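The authors made Drop-seq libraries of 4 cell lines mixed in equal parts by viable count. The deposited values are UMI counts per gene and barcode, 1 table per library. Per the study's methods, reads were downsampled with seqtk and processed with Drop-seq tools and STAR 2.4.2a on a joint hg19 and mm10 reference (Cell Ranger 1.2.0). The labels do not say whether the deposited counts come from downsampled reads. The tables held 2398956 and 8707135 UMIs, and depth limits genes of few UMIs.

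The classes and gene lists were chosen with earlier results of these data known. The name table at hand matched 0 of 29259 identifiers, so 13 further gene lists were not used here, and no sequence is shown. Genes were named by largest absolute log2 fold change among calls of 1 sign whose CPM in the higher line was 50 or more in each library, at most 2 per direction. Between libraries they were named by largest ratio of at least 2-fold among genes with at least 100 UMIs, without regard to the interval.

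Sums were tested with edgeR 4.0.16 (TMM, filterByExpr) in R 4.3.3, with DESeq2 1.42.0 as an alternative. The mixture fit used a multinomial likelihood in steps of 1% with 1 CPM added. The edgeR step and the mixture fit were tested on simulated data. The libraries shared 1 barcode, which was no IVA12 cell. No filter on mitochondrial UMIs was applied.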

Additional observations from a re-analysis of the deposited data

Results flagged for a closer look

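Barcodes of 1000 to under 2000 UMIs that met the other criteria of the rule enter no comparison. At 150 cells per µl, 5 such barcodes held 28 UMIs of Jchain, or 4113 CPM (2733 to 5945), with 3085 CPM of Mzb1 and 0 of the T genes. At 300 cells per µl, 68 such barcodes held 254 UMIs of Jchain, or 2924 CPM (2575 to 3307), with 1807 CPM of Mzb1 and 253 CPM of the T genes, the latter above the 62.9 CPM of the T genes in IVA12 cells of that library. Both were noted as signal outside the cells compared. A B sum of at least 2 above the T sum chose these barcodes and sets a high B level at this depth, so the Jchain and Mzb1 levels are a description and no evidence that the barcodes are IVA12 cells.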

How the results depend on the processing

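With 1 library per concentration, the levels carry counting error only. Another minimum of UMIs, mouse share or B sum kept the number of IVA12 cells within 1.5 times of 30 and 235. The genes called against EL4 fell from 5020 of 8881 tested to 1720 of 10049 with DESeq2. In cells with no UMI of the other line's genes, 3320 of 6947 were called, and 1864 of 4910 after thinning to 2000 UMIs. No call changed direction. Without the library as a replicate block 3414 genes were called. The samples have 1 replicate number each, so the block stands for the library that both lines share. Tests with 1 library left out were not run, as no degree of freedom is left, and neither were the alternatives for gene lists without names.

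Without thinning, the median numbers of mouse genes were 3979.5 and 3105. The B genes summed to 6973 and 6693 CPM with cells weighted equally, to 6219 and 6522 in cells with a T sum of 0, and to 6551 at 300 cells per µl in cells with an IVA12 share of at least 90%, a setting chosen after seeing the data. The T genes summed to 0 and 0 CPM at a T sum of 0, by construction, and to 21.5 at 300 cells per µl with that share. At 5000 UMIs, reached by 27 and 179 cells, the squared coefficient of variation above counting was 0.15 for Mzb1 at 150 cells per µl (0.32 at 2000 UMIs). For Pou2af1 it was 0.92 and 0.14 (0.24 and 0.30 at 2000 UMIs). The cause was not tested. Mzb1 between the libraries was -0.06 on the log2 scale with cells weighted equally.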
